A study of Mus musculus with 6 samples.

Results

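The cluster of miR-183, miR-96 and miR-182, usually called the miR-183 cluster, is a group of 3 microRNA (miRNA) genes that lie close together on mouse chromosome 6. Its members were taken from the small RNA table as every mature miRNA entry named miR-183, miR-96 or miR-182, whichever arm of the hairpin it came from. This gave 6 of the 1900 miRNA entries, a 5p and a 3p arm for each gene. Small RNAs of purified round spermatids, which are germ cells that have completed meiosis, were counted in 3 libraries of a global knockout of Miwi (KO) and 3 of the wild type (WT), all from testes of C57BL/6 mice at postnatal day 21. MIWI is a PIWI protein that binds pachytene piRNAs, and the series text states that spermatids of Miwi KO males do not develop past step 4. Libraries carry the numbers 1 to 3 within a genotype, and no label ties a number to a separate animal. The spread among these libraries may therefore be technical, and the p-values are not shown to cover a spread among animals. Miwi mRNA is not among the small RNAs of the table and so gives no check of the labels.

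A miRNA guides an Argonaute protein to messenger RNAs that pair with its seed, bases 2 to 8 counted from its 5′ end, and so lowers the output of those messages. The cluster is best known from sensory organs, where it is abundant in photoreceptors and in the hair cells of the inner ear, and changes in the seed of miR-96 cause progressive hearing loss in mice and people. Its 3 hairpins are processed from one primary transcript. Round spermatids are not a cell type for which this cluster is a standard marker.

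The RefSeq hairpins lie on the minus strand of build GRCm38.p6 in the order of transcription Mir183 (chr6:30169668-30169737), Mir96 (chr6:30169446-30169551) and Mir182 (chr6:30165918-30165992). Mir183 and Mir96 are 116 bases apart, and Mir96 and Mir182 are 3453 bases apart. In GENCODE M21, 0 other annotated genes overlap the 3820 bases of the cluster, and the nearest genes on either side, Nrf1 and the long noncoding RNA gene Rncr4, are on the opposite strand. The mature RNAs are shown from 5′ to 3′ as RefSeq gives them, with the seed in capitals, because the 5p seeds are what the members share and where they differ. The lengths of the 6 deposited entries, less the 20 nt that each indexed sequence carries beyond the RNA, equalled those of these sequences.
mmu-miR-183-5p: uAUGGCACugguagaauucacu
mmu-miR-96-5p: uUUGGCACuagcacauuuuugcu
mmu-miR-182-5p: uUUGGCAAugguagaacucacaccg
mmu-miR-183-3p: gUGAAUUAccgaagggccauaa
mmu-miR-96-3p: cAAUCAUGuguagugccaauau
mmu-miR-182-3p: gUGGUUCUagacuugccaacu

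The 5p seeds were alike but not identical. The seed of miR-96-5p differed from that of miR-183-5p at 1 of 7 bases and from that of miR-182-5p at 1 of 7, and those of miR-183-5p and miR-182-5p differed at 2. Over a longer stretch that includes the seed, the closest pair was another one. Over their first 21 bases miR-183-5p and miR-182-5p differed at 3 positions, against 8 for miR-183-5p and miR-96-5p and 9 for miR-96-5p and miR-182-5p. Among 1679 mature mouse miRNAs of RefSeq, the seeds AUGGCAC and UUGGCAA each occurred in 1, the member itself. UUGGCAC, the seed of miR-96-5p, occurred in 2, the other being miR-1271-5p, which was matched to no name in the table and was not analysed here.

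The members were scarce in round spermatids. Levels are given as CPM, which here means counts per 1000000 miRNA counts of the library. The miRNA totals ranged from 146487 to 246030 counts, so that 1 count was worth between 4.06 and 6.83 CPM. Because reads of a miRNA span the whole mature RNA, counts were not divided by length. Over the 6 libraries miR-183-5p averaged 123 CPM, miR-182-5p 97.0 and miR-96-5p 61.2, which placed them 232nd, 254th and 297th by level among the 1221 miRNAs with any count. For scale, miR-34b-5p, an abundant miRNA of meiotic and postmeiotic germ cells, was between 188087 and 200138 CPM in WT. The order of miR-183-5p and miR-182-5p was not the same in each library: miR-183-5p had more counts in 4 of 6 libraries and miR-182-5p in WT replicate 2 and WT replicate 3. The ranges of miR-183-5p and miR-182-5p overlapped within each genotype. miR-96-5p had the fewest counts of the 3 in 6 of 6 libraries. Its range overlapped that of miR-182-5p in Miwi KO, where its highest library was at 49.2 CPM and the lowest of miR-182-5p at 47.8 CPM, and lay below it in WT.

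Nearly all counts came from the 5p arms. In all libraries together the 5p arms had 357 counts and the 3p arms 8, so the 3p share was 2.19% (exact Clopper-Pearson 95% interval 0.951% to 4.27%, counting error only). It was 5.0% for miR-96 (4 of 80 counts, interval 1.38% to 12.3%), 1.89% for miR-183 (3 of 159, interval 0.391% to 5.41%) and 0.794% for miR-182 (1 of 126, interval 0.0201% to 4.34%). With so few 3p counts these intervals are wide and overlap, and a difference between the genes in arm use was not tested. No 3p arm had more than 2 counts in a library. miR-182-3p had 0 counts in each KO library, which allows up to 12.3, 12.8 and 20.5 CPM at 3 counts in KO replicates 3, 1 and 2. The 3p arms did not pass the filter on low counts, which left the 3 5p arms for the test between genotypes.

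With the setting used here miR-96-5p was called lower in the Miwi KO libraries, and the other 5p arms did not pass the test. The call was close to the threshold, and of 14 alternatives it was lost in 9 and reversed in 1. The comparison addressed whether the small RNA profile of round spermatids differs without MIWI. With library sizes set to the miRNA totals, 1 of the 3 tested members was called, where edgeR called 22.1% of the 348 tested miRNAs (13.8% lower and 8.33% higher in KO) and 83.0% of all 24682 tested small RNAs (76.7% lower and 6.3% higher). The median log2 change was -0.60 over the 3 members and -0.11 over the tested miRNAs. The p-values behind these calls were adjusted over all 24682 tested small RNAs, most of which were called. For the 3 members the adjusted p-values stayed close to the unadjusted ones (edgeR, 0.0359 against 0.0294 for miR-96-5p). The share of false calls among miRNAs alone is therefore not shown to be held at the threshold, here or for miRNAs named below. With miRNAs fitted and adjusted alone, edgeR called 12.6% of the 348.

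mmu-miR-183-5p, the first member in the transcript, was counted 28, 13 and 32 times across KO replicates 1 to 3, against 27, 22 and 34 times across WT replicates 1 to 3. Its level was 119, 88.7 and 131 CPM in KO and 150, 112 and 138 in WT. The genotypes overlapped: KO replicate 2 was the lowest library, and WT replicate 2 lay below KO replicates 1 and 3. The KO mean was 113 ± 22.0 CPM and the WT mean 134 ± 19.4 (SD, n = 3). The log2 change was -0.21 ± 0.31 (SE), with a 95% interval from -0.85 to 0.42 (edgeR adjusted p = 0.535), so a fall of up to 1.80-fold lies within the interval. The value leaned on single libraries: it was -0.09 without KO replicate 2 and -0.13 without WT replicate 1, and -0.33 without KO replicate 3 and -0.32 without WT replicate 2.

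mmu-miR-96-5p, whose seed is the one tied to hearing, was counted 9, 6 and 12 times across KO replicates 1 to 3, against 16, 15 and 18 times across WT replicates 1 to 3. Its level was 38.3, 41.0 and 49.2 CPM in KO and 89.0, 76.5 and 73.2 in WT. Each KO library lay below each WT library, as was also so for 22.4% of the 348 tested miRNAs. The KO mean was 42.8 ± 5.70 CPM and the WT mean 79.6 ± 8.35 (SD, n = 3), which is 1.86 times the KO mean. The log2 change was -0.87 ± 0.38 (SE, 95% interval -1.64 to -0.09, edgeR adjusted p = 0.0359, unadjusted p = 0.0294). Of the 348 tested miRNAs, 18 had a lower log2 change.

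The call on miR-96-5p was close to the threshold. In the same comparison with the p-value adjusted over miRNAs fitted alone it was lost (edgeR adjusted p = 0.0897), as it was with DESeq2 (adjusted p = 0.166), with TMM factors of the miRNAs (edgeR adjusted p = 0.0572) and with no filter on low counts (edgeR adjusted p = 0.0645). It was also lost without KO replicate 1 (0.126), KO replicate 2 (0.0849), KO replicate 3 (0.0593), WT replicate 1 (0.102) or WT replicate 2 (0.0635), each an edgeR adjusted p. Without WT replicate 3 it held (edgeR adjusted p = 0.0424). The SDs of miR-96-5p, 5.70 and 8.35 CPM, were smaller than the 14.8 and 19.7 CPM that counting error alone gives at these depths. Its edgeR result therefore rests mainly on counting error and on the spread of the other entries fitted with it. The counting interval of a single library was wide, from 2.20 to 13.1 counts for the 6 counts of KO replicate 2 (exact Poisson, 95%).

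mmu-miR-182-5p, the last member in the transcript, was counted 23, 7 and 20 times across KO replicates 1 to 3, against 17, 23 and 35 times across WT replicates 1 to 3. Its level was 98.0, 47.8 and 82.1 CPM in KO and 94.6, 117 and 142 in WT. The genotypes overlapped, since KO replicate 1 lay above WT replicate 1, and KO replicate 2 was the lowest library. The KO mean was 75.9 ± 25.7 CPM and the WT mean 118 ± 23.9 (SD, n = 3). The log2 change was -0.60 ± 0.35 (SE, 95% interval -1.30 to 0.11, edgeR adjusted p = 0.110), and 47 of the 348 tested miRNAs had a lower one. Without KO replicate 2 the log2 change was -0.41 (edgeR adjusted p = 0.320).

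**Figure D1:**
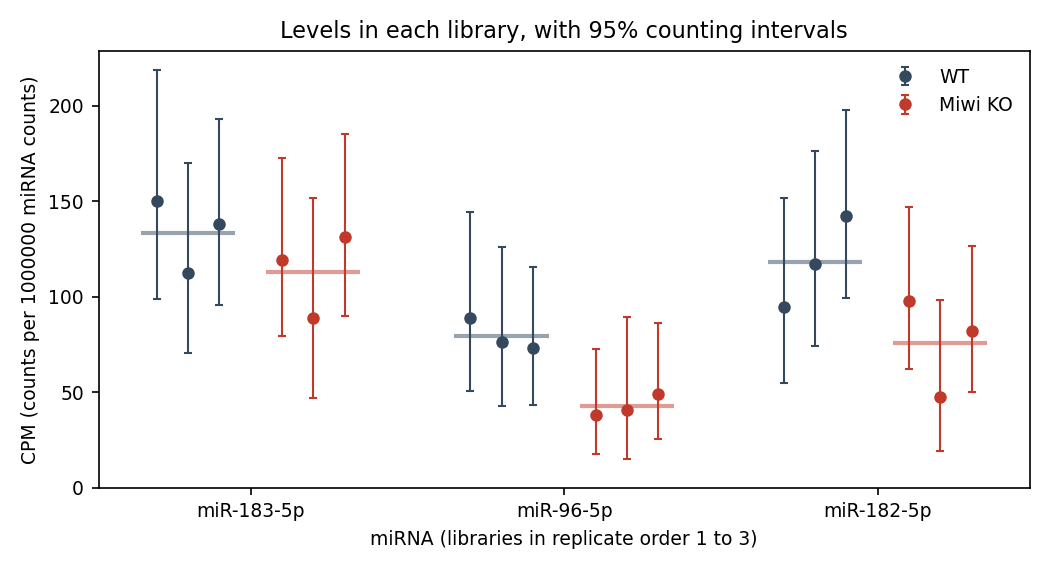
Level of each 5p arm in each library, in CPM of miRNA counts, for WT and Miwi KO. Points are libraries in replicate order, thin bars exact Poisson 95% intervals of the counts and thick lines group means. The KO points of miR-96-5p, from 38.3 to 49.2, lie below its WT points, from 73.2 to 89.0, while those of the other members overlap.

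**Figure D2:**
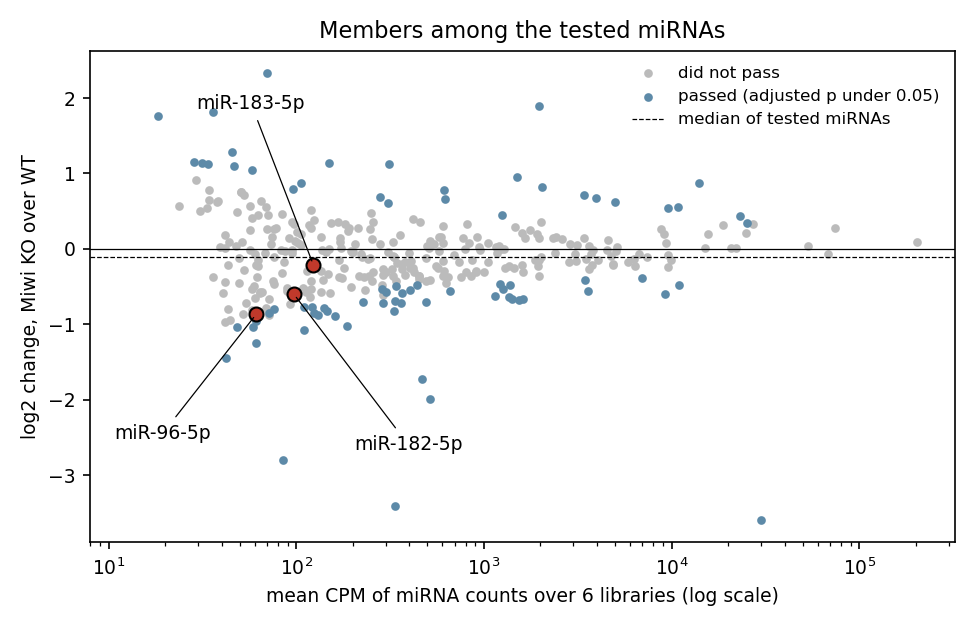
Log2 change between Miwi KO and WT against the mean level (log scale) for the 348 miRNAs tested with edgeR, scaled to miRNA totals. The 3 members (red) lie at the low end of the levels and below the dashed median of -0.11, miR-96-5p lowest at -0.87.

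The summed level of the 5p arms was 256, 177 and 263 CPM across KO replicates 1 to 3, against 334, 306 and 354 across WT replicates 1 to 3. The KO libraries lay below the WT libraries, with KO replicate 2 apart from the other KO libraries. Each KO library also lay below each WT library for 22.4% of the 348 tested miRNAs. On their own, miR-183-5p and miR-182-5p overlapped between genotypes. The KO mean was 232 ± 47.3 CPM and the WT mean 331 ± 23.9 (SD, n = 3), a log2 difference of -0.53 between the group means of log2 levels. Without KO replicate 2 this difference was -0.35. In these bulk libraries, fewer cells that carry an RNA and less of it in each cell cannot be told apart.

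The direction of each member depended on what it was measured against. The miRNA share of the table was 18.1% to 19.6% over KO libraries against 4.88% to 5.96% over WT libraries. With TMM factors of the whole table, which consists mostly of piRNAs, 97.7% of the 348 tested miRNAs were called and 97.1% rose in KO, with a median log2 change of 1.81. On that scale miR-183-5p rose by 1.73, miR-182-5p by 1.34 and miR-96-5p by 1.06 (edgeR adjusted p = 1.08e-06, 0.000292 and 0.0124). All 3 lay below that median, in the same order from miR-183-5p to miR-96-5p as with miRNA totals. A fall of miR-96-5p is therefore a fall relative to other miRNAs, and absolute amounts per cell were not measured.

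**Figure D3:**
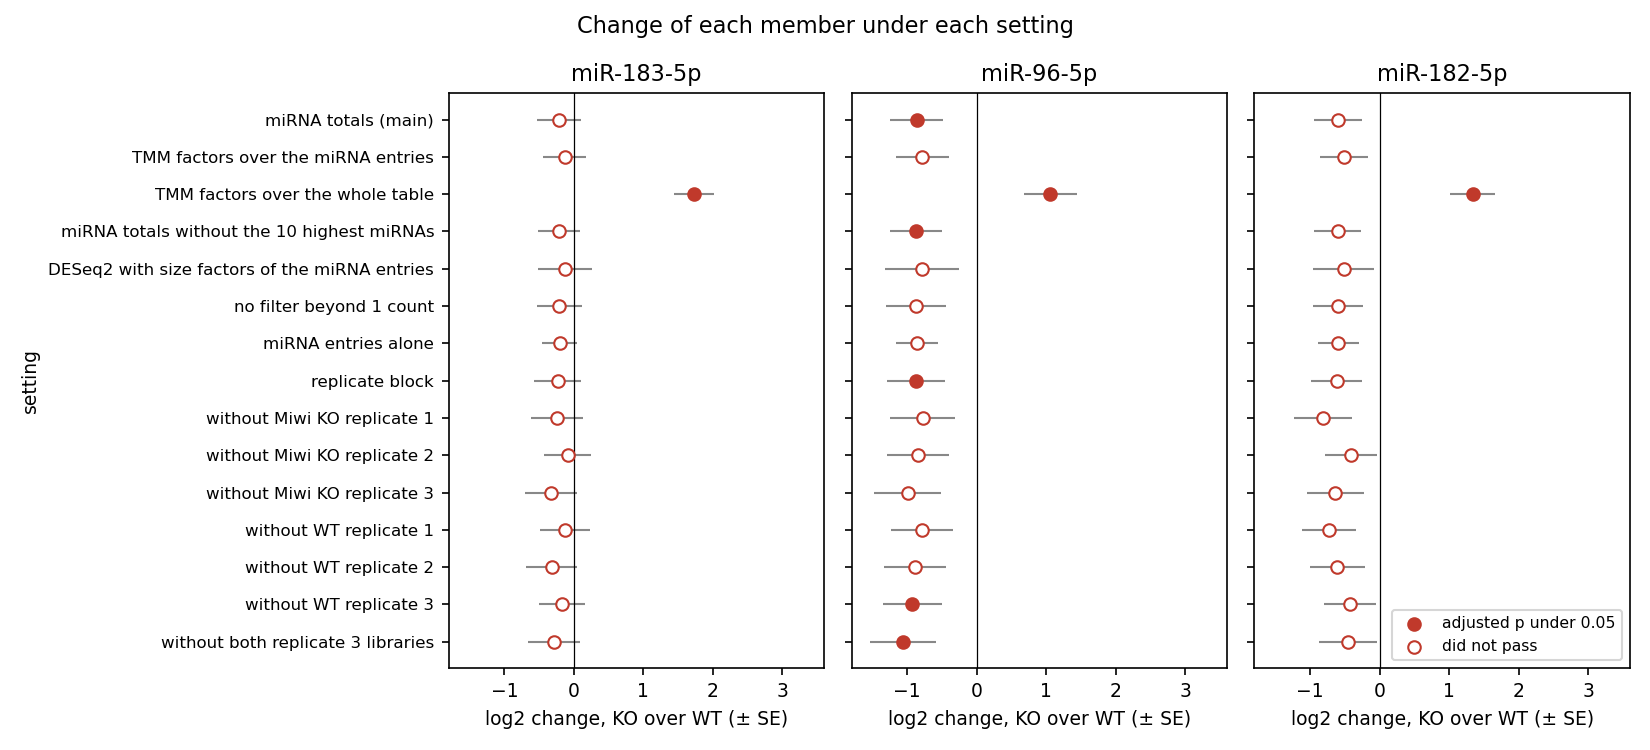
Log2 change between Miwi KO and WT (± SE) of each 5p arm under the setting used in the text and each alternative. Filled points passed the test. The point with TMM factors of the whole table is above 0 for each member, all others lie below 0, and those of miR-96-5p below 0 are partly filled and partly open.

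Ratios between members, which do not depend on the scaling of libraries, were compared to see whether the 3 RNAs of one transcript kept their proportions. In KO replicates 1 to 3 there were 0.321, 0.462 and 0.375 counts of miR-96-5p for each count of miR-183-5p, and in WT replicates 1 to 3 there were 0.593, 0.682 and 0.529. Each KO library lay below each WT library. The KO log2 ratio was -1.39 ± 0.26 and the WT one -0.74 ± 0.18 (SD, n = 3, two-sided exact permutation p = 0.1, the smallest that 3 against 3 samples allow, and adjusted p = 0.3 over the 3 pairs). For miR-182-5p against miR-183-5p the KO log2 ratio was -0.62 ± 0.31 and the WT one -0.19 ± 0.42, and libraries overlapped (exact permutation p = 0.2, adjusted p = 0.3, n = 3). The difference of -0.43 was -0.67 without WT replicate 1 and between -0.60 and -0.29 without each of the other libraries. For miR-96-5p against miR-182-5p it was -0.77 ± 0.57 and -0.55 ± 0.44, also with overlap (exact permutation p = 0.7, n = 3). This difference of -0.22 changed sign without KO replicate 1 (0.0748) or WT replicate 1 (0.0170), and was -0.49 without KO replicate 2 and -0.42 without WT replicate 3. Thus 0 of 3 ratios passed the threshold, which this number of libraries cannot reach.

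**Figure D4:**
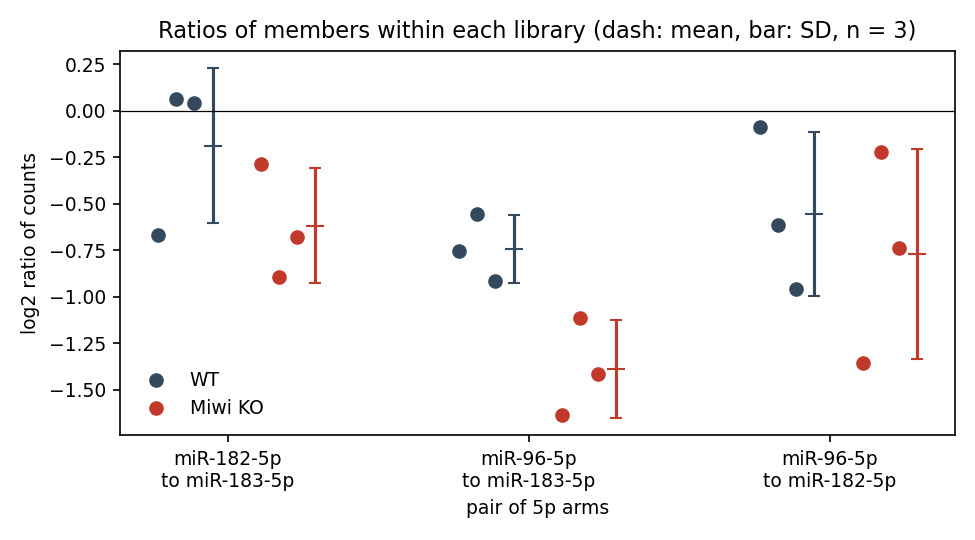
Log2 ratio of the counts of each pair of 5p arms in each library, with the mean and SD of each genotype (n = 3). For miR-96-5p to miR-183-5p the KO points, between -1.64 and -1.12, lie below the WT points, between -0.92 and -0.55, and the other pairs overlap.

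The highest 5p arm of the miR-183 cluster had 2.01 times the mean level of the lowest. Library preparation can favour some miRNA sequences over others, and this was not measured. Another polycistron, the miR-17 cluster of the host gene Mir17hg, which favours proliferation, is given for scale. Among 6 arms of the miR-17 cluster the highest had 30.5 times the mean level of the lowest. Some of its mature sequences, such as miR-19b-3p, are also made from an X-linked cluster, so their counts cannot be assigned to Mir17hg alone. Of 8 tested miRNAs of its list, 1 rose and 0 fell, where 8.33% of the 348 tested miRNAs rose and 13.8% fell, and the median log2 change was 0.12. Among its highest entries miR-18a-5p rose by 0.34 (edgeR adjusted p = 0.0467), and miR-19b-3p and miR-19a-3p were at 0.03 and 0.22, which did not pass.

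Other miRNAs known from sensory, neural and epithelial tissues were mostly not called. Of 6 tested miRNAs in a list of sensory and neural miRNAs, 2 rose and 0 fell, with a median log2 change of -0.14. miR-184-3p, a lens and cornea miRNA, rose by 1.90 (edgeR adjusted p = 6.71e-12) and miR-124-3p, a neuronal miRNA, by 0.68 (edgeR adjusted p = 0.000540), while miR-7a-5p was at -0.15 and did not pass. The list also held miR-211-5p and miR-129-5p, with at most 1 count in a library, and miR-7b-5p, with at most 7. miR-7b-5p was between 21.3 and 28.7 CPM in KO and between 5.56 and 15.3 in WT, and was not tested. Of 7 tested epithelial miRNAs, 1 rose and 0 fell, with a median of -0.06. miR-375-3p, abundant in islet and neuroendocrine cells, rose by 0.82 (edgeR adjusted p = 0.000186). miR-203-3p, a skin miRNA, and miR-200a-3p of the miR-200 family were at -0.38 and -0.58 and did not pass. Beside the 22.1% called over all tested miRNAs, these counts give no result about such tissues.

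The miRNAs whose profile over the 6 libraries was most like that of the cluster were miR-204-5p, miR-742-3p, miR-27a-3p and miR-1195. Likeness was the root mean square difference between centred log2 levels, among 249 miRNAs with a mean of at least 100 CPM. It was 0.11, 0.13, 0.14 and 0.14, where the median over these miRNAs was 0.37. The log2 changes were -0.36 for miR-204-5p and -0.29 for miR-27a-3p, which did not pass, and miR-742-3p, a miRNA of an X-linked germ cell cluster, fell by 0.64 (edgeR adjusted p = 0.00217). miR-1195 fell by 0.55 (edgeR adjusted p = 0.0173). The 4 were chosen for this likeness from these libraries, and it is a description.

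Markers of other testis cells were present in both genotypes, and mesenchymal markers were lower in KO together with miR-96-5p. All 5 mesenchymal miRNAs of the list fell, with a median of -0.69, where 13.8% of all tested miRNAs fell. The list holds both arms of miR-199a, so its entries are not independent markers. miR-145a-5p, miR-143-3p and miR-214-3p fell by 0.47, 0.60 and 0.72 (edgeR adjusted p = 0.0216, 0.000869 and 0.00414). Libraries overlapped for miR-145a-5p, which was between 7257 and 12029 CPM in KO and between 9626 and 16876 in WT. The summed level of the list was between 15087 and 19856 CPM in KO and between 21431 and 30574 in WT. The 1 tested erythroid miRNA of 3, miR-451a, fell by 1.25 (edgeR adjusted p = 0.00427). The other two, miR-144-3p and miR-486a-5p, had at most 5 and 4 counts in a library and overlapped between genotypes. The list summed to between 38.3 and 54.6 CPM in KO and between 83.4 and 122 in WT. Whether such cells have a part in the level of miR-96-5p was not tested. Of 2 tested Sertoli and gonadal, 2 endothelial and 4 leukocyte miRNAs, 0 rose and 0 fell, with medians of -0.20, 0.04 and 0.30. miR-383-5p of the Sertoli list was at 0 in each library. The Sertoli list summed to between 1711 and 2246 CPM in KO and 1898 and 2357 in WT, the endothelial list to between 8039 and 8718 and between 8333 and 8580, and the leukocyte list to between 1917 and 2194 and between 1546 and 2056. Their highest members, miR-202-5p at -0.15 and miR-202-3p at -0.25 (gonadal), miR-126a-3p at -0.07 and miR-126a-5p at 0.15 (endothelial), and miR-223-3p at 0.32, miR-142a-3p at 0.00 and miR-142a-5p at 0.28 (leukocyte), did not pass. Of 4 germ cell miRNAs, which are arms of miR-34b, miR-34c and miR-449a only, 2 rose and 0 fell, with a median of 0.36. miR-449a-5p rose by 0.44 (edgeR adjusted p = 0.0111), and miR-34b-5p and miR-34c-5p were at 0.10 and 0.28 and did not pass. This list summed to between 310417 and 349498 CPM in KO and between 281823 and 301668 in WT. It does not stand for germ cell miRNAs as a whole. miR-449b fell by 0.70 (edgeR adjusted p = 0.00304), and miR-878-3p, miR-881-3p and miR-880-3p, of the same X-linked cluster as miR-742-3p, fell by 0.67, 0.53 and 0.42 (edgeR adjusted p = 0.000955, 0.00904 and 0.0210). These 4 were named after their values were seen, and the X-linked ones do not stand for their cluster. In that cluster miR-741-3p, miR-743b-3p, miR-743a-3p and miR-871-3p, at higher levels, were at -0.09, -0.13, -0.10 and 0.12 and did not pass. miR-470-3p, also of that cluster, fell by 0.47 (edgeR adjusted p = 0.0178). These too were named after their values were seen. They are not a full list of that cluster, and the share of its tested miRNAs that was called was not counted.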

How the data were processed

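The deposited small RNA table holds raw counts, whole reads assigned to each reference sequence by featureCounts v1.5.0-p2 per the file headers. The submitters' processing notes add cutadapt, DESeq2 and build mm9. For the aligner and for reads with several matches, the settings are not stated in the sources used here. The table of piRNA clusters was not used here. The small RNA table held between 747443 and 1335013 counts in KO and between 3114845 and 5037232 in WT libraries.

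The 24682 entries that passed filterByExpr (minimum count 10, minimum total 15) were tested two-sided, without a block, by the quasi-likelihood test of edgeR 4.0.16 (R 4.3.3). Library sizes were the miRNA totals, Benjamini-Hochberg adjustment ran over all entries tested, and the threshold was 0.05. Alternatives were DESeq2 1.42.0, other scalings and filters, miRNAs alone, the replicate block and libraries left out. The fit was tested on simulated data in which few entries changed, with as many up as down. Most entries of the real table were called lower in KO, a setting that the simulation did not cover. Ratios were compared with exact permutation tests in Python 3.11.15. Library pairs of a genotype differed by more than sampling noise (chi-square per degree of freedom between 7.75 and 25.7 over 189 miRNAs).

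The members and lists were chosen with earlier results of these data known. Named were the members, up to 3 tested miRNAs of each list by level, the 4 miRNAs most alike in profile (log2 of the level plus 1) and miRNAs that share a seed. Also named were untested miRNAs of some lists. After their values were seen, miR-449b and miRNAs of the X-linked cluster of miR-742-3p were named as well.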

Additional observations from a re-analysis of the deposited data

How the results depend on the processing

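The number of members called was 1, and 0 with TMM factors of the miRNAs, DESeq2, no filter or miRNAs alone, 3 with TMM factors of the whole table, and between 0 and 1 with a library left out. Of 14 alternatives, miR-96-5p passed as a fall in 4 and as a rise in 1, TMM factors of the whole table, and did not pass in 9. With TMM factors of the whole table the log2 changes were 1.73, 1.34 and 1.06 for miR-183-5p, miR-182-5p and miR-96-5p, the summed level differed by 1.39 and 340 miRNAs were called, against 77. DESeq2 called 46 miRNAs. The fit of miRNAs alone, which adjusts p-values over the 348 tested miRNAs only, called 44 of them, against 77 with the setting used in the text. The other 13 alternatives kept each member lower in KO, miR-96-5p between -1.06 and -0.78. The log2 ratio of miR-96-5p to miR-182-5p changed sign without KO replicate 1 (0.0748) or WT replicate 1 (0.0170), within a range of -0.49 to 0.0748. The cause of these changes was not tested. Between 17354 and 22516 small RNAs and between 58 and 73 miRNAs were called with a library left out. With the replicate block the log2 change of miR-96-5p was -0.87 (edgeR adjusted p = 0.0480) and 20573 small RNAs were called, against 20498. Same-numbered libraries had correlated deviations of -0.14, 0.43 and 0.38 (189 miRNAs). KO replicates 2 and 3 correlated best with the WT library of the same number. KO replicate 1 correlated best with WT replicate 2, at 0.17, so the numbers were not taken as pairs. A structure shared by same-numbered libraries was not tested beyond the replicate block. With at most 35 counts of a member in a library, depth limits each comparison.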
